A study of Macaca fascicularis with 44 samples.

Results

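The comparison set the anterior dentate gyrus (aDG) against the posterior dentate gyrus (pDG) in saline-treated female cynomolgus macaques (Macaca fascicularis), by RNA-seq of total RNA. It holds 10 of the 44 libraries of the series, 5 of aDG and 5 of pDG. They were chosen by their tissue label and the saline label, and joined into 5 pairs by title numbers that lie 31 apart. One saline pair was left out, the aDG library titled RPB1662 and its pDG partner RPB1693, because RPB1662 did not lie with the other aDG libraries. The series also holds 5 aDG and 5 pDG libraries of animals given betamethasone, a synthetic glucocorticoid, as well as basolateral amygdala (BLA) and anterior cingulate cortex (ACC) libraries of both treatments. These were used to place the saline difference. Ages, the betamethasone dose and the animal behind each library are not given in the labels, so a p-value here speaks of the spread among the libraries at hand, which may be technical.

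The dentate gyrus is the first station of the hippocampal circuit. Its granule neurons receive input from the entorhinal cortex and send mossy fibres to CA3, and new granule neurons can be added in adult life. The hippocampus differs along its length in connections and gene expression. The anterior part in primates corresponds to the ventral part in rodents, which is tied to the amygdala and to stress and emotional behaviour, and the posterior part corresponds to the dorsal part in rodents, which is tied to spatial memory.

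The deposited tables give Ensembl-style identifiers without names. The gene table used here held no identifiers of this kind, so 0 of 17293 could be matched. Markers of granule neurons, glia or neighbouring fields could therefore not be read, and the tissue labels were checked only by the likeness of libraries to each other. The text names 2 identifiers in each direction and otherwise gives counts. In such bulk samples fewer cells of a type and less RNA per cell cannot be told apart.

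The libraries held 30904257 to 71378308 gene reads. Levels are given as CPM, reads scaled to 1000000 gene reads, and 1 CPM stood for at least 30.9 reads. Reads outside annotated genes made up 32.6% ± 2.08 of mapped reads in aDG, against 29.3% ± 3.85 in pDG (SD, n = 5 in each part), and this share was higher in aDG in 4 of 5 pairs (two-sided exact permutation test over pairs, p = 0.125, adjusted p = 0.229 over 11 measures). The number of identifiers at 1 CPM or more was 13289 ± 39.7 in aDG and 13131 ± 104 in pDG, higher in aDG in 5 of 5 pairs. Its exact permutation p of 0.0625 (adjusted p = 0.172) is the smallest that 5 pairs allow, so no such measure could pass 0.05. Of all reads, 31.4% were unmapped in pDG replicate 6, against 11.9% to 15.5% in the other 9 libraries.

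The pairs were visible in the data. For each library the deviation from its group mean was taken over all identifiers tested, and deviations were correlated between aDG and pDG libraries. Libraries with partner numbers had correlations of 0.51 to 0.78, and in all 5 saline pairs the partner was the closest library of the other part. The highest correlation between saline libraries that were not partners was 0.10. In the betamethasone libraries the partner was the closest in 3 of 5 pairs. There aDG replicate 1 correlated at 0.10 with its own partner and at 0.29 with pDG replicate 4, and aDG replicate 4 at -0.02 with its own partner and at 0.43 with pDG replicate 1. Title numbers therefore paired the saline libraries throughout, but not all betamethasone libraries. These correlations run across identifiers, which are not independent, and the labels do not say what a number stands for.

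**Figure D1:**
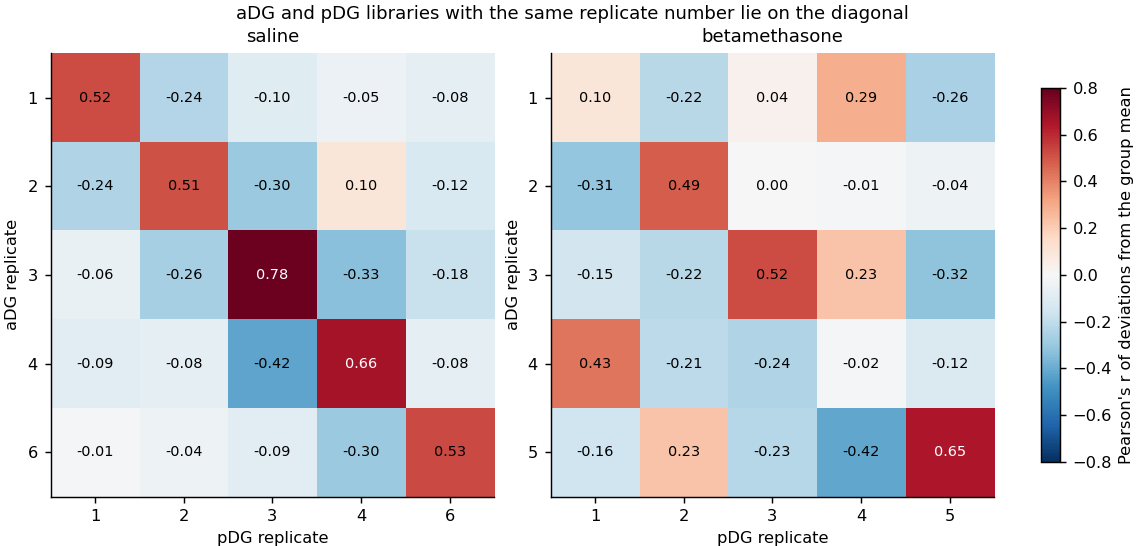
Pearson's r between deviations from the group mean (log2 scale) of each aDG library (down) and each pDG library (across), for saline (left) and betamethasone (right). The diagonal holds partner libraries, with 0.51 to 0.78 in saline, while in betamethasone replicates 1 and 4 have higher values off the diagonal.

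Libraries were then placed on axes set by betamethasone libraries alone, which share no library with the saline comparison. The axis from pDG to aDG rests on the 120 identifiers that passed the threshold between betamethasone aDG and pDG libraries, with the pDG mean at 0 and the aDG mean at 1. The saline aDG libraries lay at 0.90, 1.02, 0.79, 0.99 and 0.86 (replicates 1, 2, 3, 4 and 6). The saline pDG libraries with the same numbers lay at -0.04, 0.57, 0.12, 0.24 and 0.05. The parts did not overlap, but pDG replicate 2 lay past the midpoint. All 5 pairs differed in the same direction, by 0.73 ± 0.18 (mean ± SD; two-sided exact permutation p = 0.0625, adjusted p = 0.172 over 11 measures). The left-out pDG library, replicate 5, lay at 0.80 and the left-out aDG library at 0.94, both within the range of the aDG libraries.

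On the same axis the saline BLA libraries lay between 0.90 and 1.06 and the saline ACC libraries between 0.99 and 1.10. A position near 1 on it therefore does not set aDG apart from BLA or ACC. A position averages over identifiers, and single ones can differ from it. A further axis ran from pDG to BLA over 319 identifiers at least 4-fold apart. The saline aDG libraries lay at 0.10 to 0.29 on it, with replicate 2 the highest, and the saline pDG libraries at 0.02 to 0.10. All 5 aDG libraries lay above their partners. The left-out aDG library lay at 0.98, among the saline BLA libraries (0.77 to 0.99). Its pDG partner lay at 0.10, next to the highest pDG library of the comparison. On the axis from pDG to ACC over 572 identifiers, the aDG libraries lay at 0.11 to 0.23 and the pDG libraries at 0.02 to 0.08. Whether tissue from neighbouring regions takes part in the difference was not tested.

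**Figure D2:**
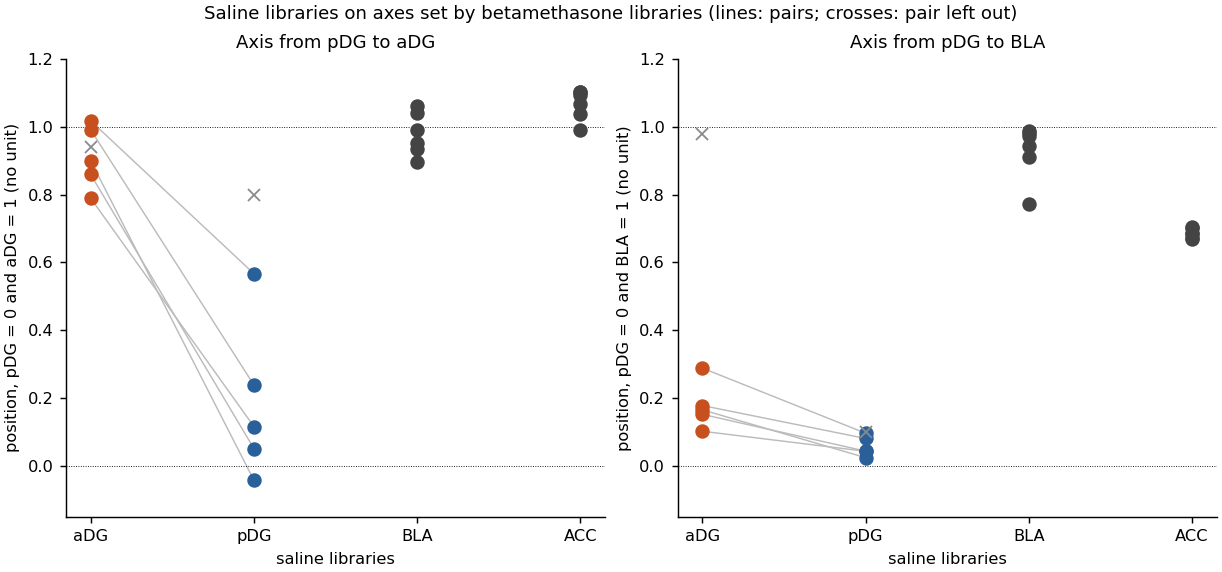
Positions of saline libraries, 1 point each, on the axis from pDG (0) to aDG (1) and on the axis from pDG (0) to BLA (1), both set by betamethasone libraries. Lines join pairs and crosses mark the left-out pair. Its aDG library lies at 0.94 on the aDG axis and 0.98 on the BLA axis, and its pDG library at 0.80 and 0.10.

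Of 14331 identifiers tested in the 5 pairs, 840 (5.86%) passed an adjusted p of 0.05 in edgeR's quasi-likelihood test with the pair as a block. Of these 519 (3.62%) were higher in aDG and 321 (2.24%) lower. The differences were mostly small. The median was 1.38-fold for identifiers higher in aDG and 1.30-fold for those lower. Under 1.5-fold lay 349 of the 519 and 260 of the 321. Only 67 of the calls (0.468% of identifiers tested) were at least 2-fold apart, 48 higher in aDG and 19 lower, and 4 in each direction differed at least 4-fold. The largest log2 difference was 3.15 for an identifier higher in aDG and -2.61 for one lower.

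The calls were chosen by a test within these same pairs, so the share of pairs with the direction of the call is a description only. All 5 pairs had the direction of the call for 502 of the 519 identifiers higher in aDG and for 301 of the 321 lower, while 19.1% of all identifiers tested had 1 direction in all 5 pairs. The lowest aDG value lay above the highest pDG value, or the highest aDG value below the lowest pDG value, for 167 of the 840, against 1.86% of all identifiers tested. For most calls the parts thus overlapped and the difference showed within pairs. Without the block 1 identifier (0.00698%) passed and 1203 (8.39%) had an unadjusted p under 0.05 in edgeR. All 840 kept their direction, but the design nearly fixed this in advance. With libraries balanced over pairs, leaving out the block hardly changes the estimates (median 99.8% of the log2 difference). It changes the SE of the calls, at a median of 0.1595 without the block and 0.0853 with it. The biological coefficient of variation was 11.7% with the pair as a block and 21.96% without it.

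Calls lower in aDG were drawn more from identifiers with many reads than calls higher in aDG. Identifiers tested were divided into 4 bins of equal size by their mean CPM, which also grows with transcript length and so is no measure of copies. In the lowest bin (0.209 to 6.60 CPM) 2.99% were higher in aDG and 0.837% lower. In the highest bin (69.4 to 4114 CPM) 2.87% were higher and 4.94% lower. The median CPM was 22.7 for the 519 and 87.3 for the 321, against 25.1 over all identifiers tested. Of the 67 calls with at least 2-fold, 53 were in the lowest bin. The median absolute log2 difference of the calls was 0.874, 0.496, 0.379 and 0.337 from the lowest bin to the highest. With few reads mostly large differences can pass the threshold. Calls alone therefore cannot tell whether large differences are more frequent at low levels. In a refit of identifiers with a mean of at least 1 CPM, 45 calls were at least 2-fold apart. As a description of the chosen sets, the 519 took 3.56% ± 0.384 of gene reads in aDG and 2.62% ± 0.273 in pDG, and the 321 took 6.06% ± 0.415 in aDG and 7.51% ± 0.558 in pDG (SD over 5 libraries a part).

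**Figure D3:**
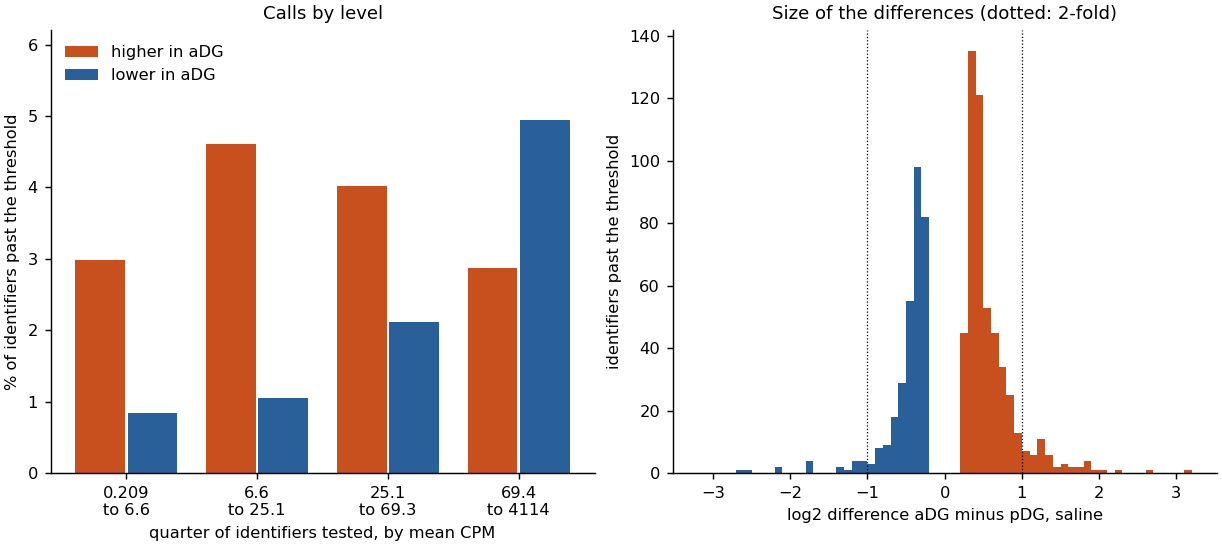
Left, share of identifiers tested that passed the threshold, higher (orange) or lower (blue) in aDG, by bin of mean CPM over the 10 saline libraries. Right, number of calls by log2 difference aDG minus pDG, with 2-fold marked by dotted lines, where most calls lie inside 2-fold.

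ENSMFAG00000030468 was the higher identifier in aDG with the lowest p among those at least 2-fold apart. The aDG libraries held 13.1, 25.0, 14.2, 13.6 and 10.02 CPM (replicates 1, 2, 3, 4 and 6), and the pDG libraries 3.05, 5.68, 2.94, 5.32 and 3.31 CPM. Every aDG library lay above every pDG library, and replicate 2 was the highest in both parts. The means were 15.2 ± 5.71 CPM in aDG and 4.06 ± 1.33 CPM in pDG (SD over 5 libraries a part), a log2 difference of 1.84 ± 0.15 (SE; edgeR quasi-likelihood adjusted p = 0.000831). Its level was also high outside the dentate gyrus, with 15.4 to 41.8 CPM in saline BLA (n = 6) and 14.7 to 20.8 CPM in saline ACC (n = 6). In the left-out pair the aDG library held 18.3 CPM and the pDG library 13.8 CPM, above all 5 pDG libraries of the comparison.

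ENSMFAG00000001326 had a different place among the regions. The aDG libraries held 16.8, 19.6, 13.5, 15.6 and 17.3 CPM, and the pDG libraries 7.81, 7.81, 6.60, 8.22 and 6.50 CPM. The parts did not overlap and the spread within each was narrow. The log2 difference was 1.11 ± 0.10 (SE; edgeR adjusted p = 0.00175), and this was the 1 identifier that also passed without the block (log2 difference 1.12, edgeR adjusted p = 0.0378). The other 3 named identifiers had an edgeR adjusted p of 0.0509 to 0.517 without it. Saline BLA held 1.25 to 6.25 CPM and saline ACC 3.36 to 11.1 CPM, so that all 5 aDG libraries lay above every saline library of the other 3 regions. The left-out aDG library held 1.76 CPM of it, in the range of BLA, and the left-out pDG library 7.53 CPM, in the range of pDG.

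ENSMFAG00000043799 was the identifier with the lowest p of all, and it was lower in aDG. The aDG libraries held 3.11, 0.771, 1.76, 1.33 and 2.08 CPM (36 to 104 reads), and the pDG libraries 10.4, 2.86, 5.73, 3.44 and 7.999 CPM (91 to 605 reads). Levels overlapped between the parts, since aDG replicate 1 lay above pDG replicate 2, while the log2 difference within pairs lay between -2.04 and -1.44. The fitted log2 difference was -1.77 ± 0.14 (SE; edgeR adjusted p = 0.000831). It was near 0 outside the dentate gyrus, at 0.0211 to 0.268 CPM in saline BLA (1 to 15 reads) and 0 to 0.0956 CPM in saline ACC (0 to 4 reads). The left-out aDG library held 0 CPM and the left-out pDG library 1.12 CPM, below all 5 pDG libraries of the comparison.

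ENSMFAG00000011730 was likewise lower in aDG. The aDG libraries held 10.4, 2.91, 10.1, 10.02 and 15.8 CPM, and the pDG libraries 19.6, 7.53, 17.4, 21.5 and 26.3 CPM. Replicate 2 was the lowest and replicate 6 the highest in both parts, and the parts overlapped. The log2 difference was -1.02 ± 0.10 (SE; edgeR adjusted p = 0.00195), with -1.38 to -0.82 within pairs. Saline BLA held 0.107 to 0.802 CPM and saline ACC 2.73 to 4.68 CPM. In the left-out pair the aDG library held 0.141 CPM and the pDG library 5.38 CPM. For both identifiers lower in aDG, replicate 2 held the lowest value of each part.

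**Figure D4:**
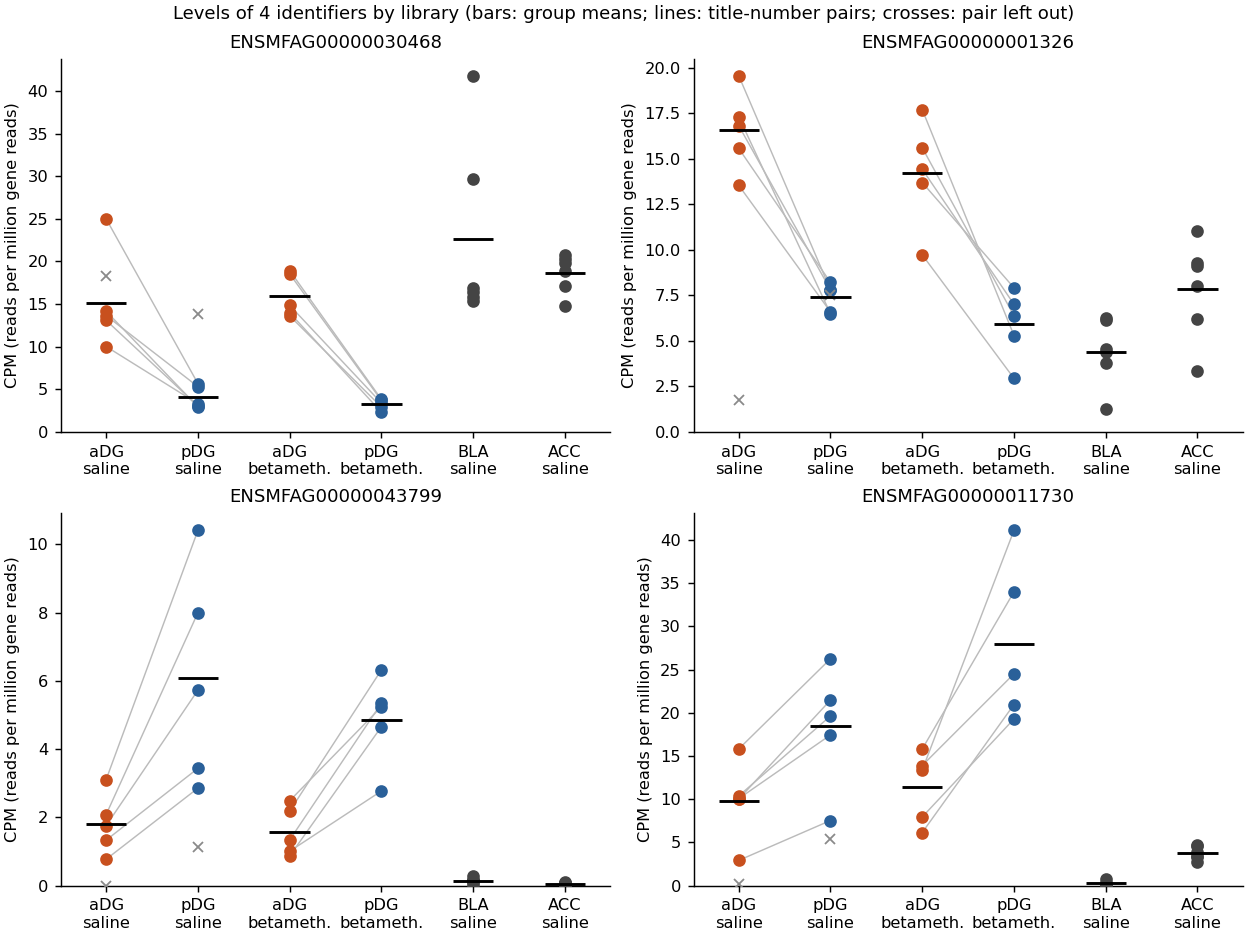
CPM of the 4 named identifiers in each library of aDG and pDG (saline, then betamethasone) and of saline BLA and ACC. Lines join pairs, bars are group means and grey crosses are the left-out pair; each line for ENSMFAG00000030468 and ENSMFAG00000001326 falls and each line for ENSMFAG00000043799 and ENSMFAG00000011730 rises on the way to pDG.

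The betamethasone libraries gave the same contrast in samples that the saline comparison did not use. All 4 named identifiers passed there in the same direction. Their log2 differences with betamethasone were 2.28 ± 0.12 for ENSMFAG00000030468 (SE; edgeR adjusted p = 0.000466) and 1.28 ± 0.16 for ENSMFAG00000001326 (edgeR adjusted p = 0.0246). For ENSMFAG00000043799 the value was -1.72 ± 0.23 (edgeR adjusted p = 0.0313) and for ENSMFAG00000011730 -1.35 ± 0.15 (edgeR adjusted p = 0.0210). ENSMFAG00000030468 held 13.6 to 18.9 CPM in the 5 aDG betamethasone libraries and 2.32 to 3.83 CPM in the 5 of pDG. ENSMFAG00000043799 held 0.864 to 2.48 CPM in aDG and 2.77 to 6.32 CPM in pDG with betamethasone, so there its parts did not overlap.

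Of the 840 saline calls 836 could be tested in the betamethasone libraries, and 830 (99.3%) had the same direction there, against 71% of all 14254 identifiers tested in both and 69.2% of those not called in saline. In the same direction with an unadjusted p under 0.05 were 389 of 515 identifiers higher in aDG, where 9.02% of all identifiers had that direction and p, and 256 of 321 lower, where 7.77% did. None of the 6 with the opposite direction had an unadjusted p under 0.05 in edgeR. The sizes were alike, with a median log2 difference of 0.44 with betamethasone and 0.46 with saline for the identifiers higher in aDG, and -0.38 with betamethasone and -0.37 with saline for those lower. All 63 calls at least 2-fold apart that could be tested kept their direction, and 50 of them were again at least 2-fold apart. The share of all identifiers at least 2-fold apart there was not counted, so the 50 are a description only. In the betamethasone libraries reads outside genes were again more frequent in aDG. They made up 32.2% ± 2.33 of mapped reads in aDG and 29.4% ± 2.36 in pDG (SD). This share was higher in aDG in 5 of 5 pairs (two-sided exact permutation test, p = 0.0625, adjusted p = 0.5 over 8 measures). What sets it was not tested. Whether this share takes part in the agreement was not tested.

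On their own the betamethasone pairs gave 120 calls of 14443 identifiers (0.831%), 73 higher and 47 lower in aDG, with 2411 (16.7%) at an unadjusted p under 0.05. Of these 86 were also saline calls in the same direction, which is 71.7% of the betamethasone calls and 10.3% of the saline calls tested there. The betamethasone count was 61 (0.422%) without the block, and 2, 10 and 2 without replicate 2, 3 or 5. The biological coefficient of variation was 19.1% with the block. In betamethasone replicates 1 and 4 this block joined libraries that failed the pairing check (correlations of 0.10 and -0.02), so its spread may not be that of true pairs.

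**Figure D5:**
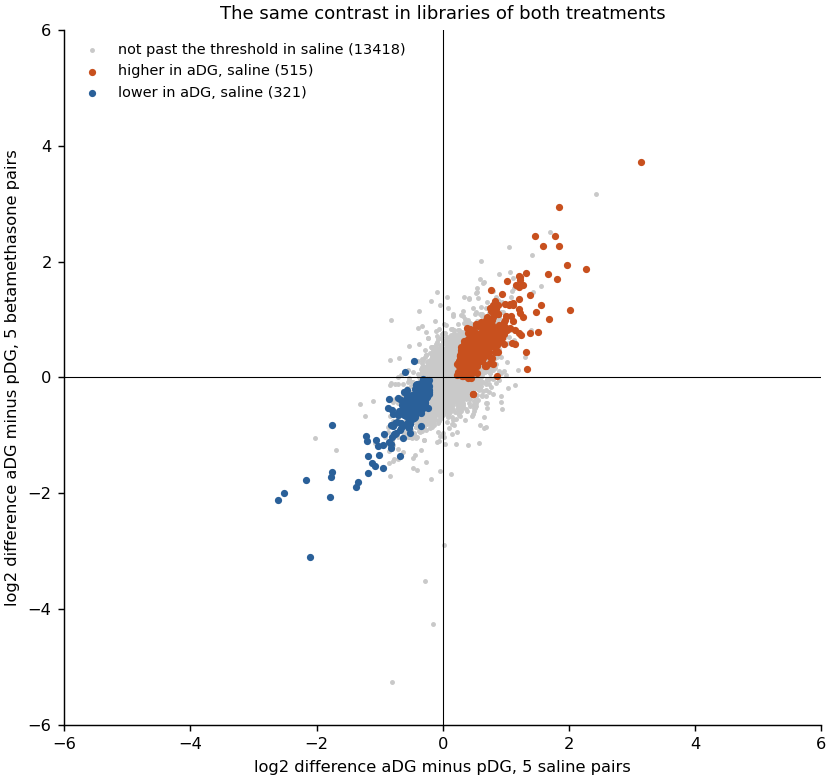
Log2 difference aDG minus pDG in the 5 saline pairs (across) and in the 5 betamethasone pairs (up), 1 point per identifier tested in both. Identifiers higher (orange) and lower (blue) in aDG with saline lie on the same side of 0 with betamethasone for 830 of 836.

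A change of the aDG-minus-pDG difference with betamethasone was tested directly, in a fit of the 20 dentate gyrus libraries with the pair as a block. Of 14692 identifiers 0 passed in edgeR (lowest adjusted p 0.985; 358, or 2.44%, at an unadjusted p under 0.05), and 0 passed in DESeq2 (387 at an unadjusted p under 0.05). The interaction was 0.44 ± 0.20 on the log2 scale (SE) for ENSMFAG00000030468 and 0.16 ± 0.19 for ENSMFAG00000001326. It was 0.06 ± 0.27 for ENSMFAG00000043799 and -0.33 ± 0.19 for ENSMFAG00000011730 (edgeR adjusted p of at least 0.985 for all 4). The block again joined betamethasone replicates 1 and 4 by title number, although these failed the pairing check, which bears on the spread in this fit. Without the block 0 identifiers passed as well, with 91 at an unadjusted p under 0.05 in edgeR. These values do not show that the difference is equal in both treatments.

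The saline calls were next set against the other regions, again in betamethasone libraries only. Between BLA and pDG 2826 of 14520 identifiers passed (19.5%), and between ACC and pDG 7136 of 14557 (49%). Of the identifiers higher in aDG 125 of 515 (24.3%) were higher in BLA than in pDG, where 9.47% of all identifiers were, and they made up 9.27% of that BLA list. Of the identifiers lower in aDG 160 of 321 (49.8%) were lower in BLA than in pDG, where 9.88% of all identifiers were, and they made up 11.4% of that list. For ACC 250 of 514 identifiers higher in aDG (48.6%) were higher in ACC than in pDG, where 23.3% of all identifiers were (7.56% of the ACC list). Likewise 193 of 321 lower in aDG (60.1%) were lower in ACC than in pDG, where 25.5% of all identifiers were (5.34% of that list).

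In the opposite direction the shares lay near or below those over all identifiers. Of the identifiers higher in aDG 51 of 515 (9.90%) were lower in BLA than in pDG, where 9.88% of all were, and 73 of 514 (14.2%) were lower in ACC, where 25.5% of all were. Of the identifiers lower in aDG 20 of 321 (6.23%) were higher in BLA than in pDG, where 9.47% of all were, and 55 of 321 (17.1%) were higher in ACC, where 23.3% of all were. By mean log2 level in the betamethasone libraries 515 of the 519 identifiers lay above pDG in aDG, and aDG was the highest of the 4 regions for 228 of these (44.3%). Among all identifiers with aDG above pDG there, the share was 45.7%. Scatter that puts aDG above pDG in these means also favours aDG as the highest. This share therefore cannot tell whether being highest in aDG was more or less frequent among the calls. Of the 321 identifiers 319 lay below pDG in aDG, and aDG was the lowest of the 4 for 105 of these (32.9%), where 46% of all identifiers with aDG below pDG were. The same limit holds for that share. ENSMFAG00000001326 was among those highest in aDG, while ENSMFAG00000030468 lay higher in BLA and ACC than in pDG, with log2 differences of 3.15 and 2.33 in the betamethasone libraries.

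Single pairs moved the saline count. It was 306, 173, 314 and 204 without replicate 1, 3, 4 or 6, and 889 higher plus 869 lower without replicate 2, the pair whose pDG library lay closest to aDG. In each of these 5 fits all calls that could be tested kept their direction with an unadjusted p under 0.05 in edgeR, and 127 were called in all 5. Each fit reuses pairs that chose the calls, so this too is a description only. With the share of reads outside genes as a covariate 83 identifiers passed, 39 of them among the 840, and all 840 kept their direction at a median of 87.7% of their log2 difference, while the median SE was 0.138 with the covariate and 0.0853 without it. With the left-out pair added 31 passed, all among the 840. Within the left-out pair itself 290 of the 840 (34.5%) had the direction of the call, against 38.4% of all identifiers tested.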

How the data were processed

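The deposited tables hold whole-number read counts per gene identifier for each library, unstranded and per strand, and per the submitters' processing notes STAR was used. Which STAR version, build and annotation is not given in the sources used here. The strand column with the larger gene total was used (51.7 to 72.1 times the other), rows naming no gene were left out (24.5% to 35.4% of mapped reads lay outside genes and 0.398% to 0.444% were ambiguous), and 139 repeated identifiers were summed. Multimapping reads are listed as 0. Libraries were grouped by label and numbered in accession order. Each of 20 comparisons of libraries within a part gave a chi-square of at least 32.7 per degree of freedom. No library was therefore a repeat count of another in its part. A further library of the same tissue, or a repeat between aDG and pDG, would not be seen by this check.

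The test was that of edgeR 4.0.16 under R 4.3.3 (TMM, filterByExpr with a minimum count of 10 and total of 15, robust quasi-likelihood F test, Benjamini-Hochberg over all identifiers tested, threshold 0.05), with the title-number pair as a block. SEs are the log2 difference divided by the square root of F. CPM are reads scaled to 1000000 gene reads. The pairing comes from title numbers and was checked by correlation (minimum 0.1). The BLA and ACC contrasts with pDG carried no block. The fit was tested on simulated data. Alternatives included DESeq2 1.42.0 and limma 3.58.1. Named identifiers are the 2 in each direction with the lowest p among calls at least 2-fold apart, with 1 direction in all 5 pairs and a mean of at least 1 CPM (26 higher and 16 lower qualified). The library left out, the comparison and these rules were chosen with earlier results of these data known. The check of the saline calls in other libraries, the contrasts with BLA and ACC and the axes were added after seeing the data.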

Additional observations from a re-analysis of the deposited data

Results flagged for a closer look

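Of 62 sets of 4 to 10 values (1 per measure and group), 6 had a library apart from the rest, where chance gives about 1 in 20. The share of unmapped reads was 31.4% in saline pDG replicate 6, against 11.9% to 14.5% in the other 4 pDG libraries of the comparison. Saline aDG replicate 3 had 0.443% ambiguous reads, against 0.398% to 0.404% in the other 4 aDG libraries of the comparison. Of mapped reads 28.2% lay outside genes in betamethasone aDG replicate 3, against 32.6% to 34.2% in the other 4 libraries.

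ENSMFAG00000030468 stood at 25.0 CPM in saline aDG replicate 2, against 10.02 to 14.2 CPM in the other 4, and without that pair its log2 difference was 1.76. It also stood at 40.2 CPM in betamethasone BLA replicate 3, against 22.8 to 25.7 CPM in the other 3. ENSMFAG00000011730 stood at 0.802 CPM in saline BLA replicate 6, against 0.107 to 0.343 CPM in the other 5.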

How the results depend on the processing

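Counts of calls moved with the block, the pairs included, the share of reads outside genes and the tool. Depth limits identifiers with few reads, but no setting varied it. ENSMFAG00000043799 had the lowest p of all with 36 to 104 reads in aDG. Without the replicate block 1 identifier passed (1 higher, 0 lower, 1 at least 2-fold). The same counts were found, again without the block, with only the library that lies with BLA left out and its pDG partner kept. With all 6 saline pairs 31 passed (16 higher, 15 lower, 10 at least 2-fold). DESeq2 with the block gave 1269 (522 lower), the share of reads outside genes as covariate 83 (53 higher, 30 lower), and the spread of 20 libraries 438 (266 higher, 172 lower). Leaving out 1 pair gave 173 to 1.8e+03 calls, 113 to 889 higher, 60 to 869 lower and 31 to 117 at least 2-fold. For betamethasone, counts were 61 without the replicate block, 923 in DESeq2 and 2 to 99 with 1 pair left out. The cause of these moves was not tested, and fits that leave a pair out also hold fewer libraries. Upper-quartile scaling, DESeq2 size factors, both other filters, limma voom and the unstranded column left the 4 saline counts within 1.5 times. No named identifier reversed, and of 68 refits 59 kept the call. Lost calls came without the block or with the left-out pair in whole or part. ENSMFAG00000043799 ranged from -1.95 to -1.59 (edgeR adjusted p up to 0.689), ENSMFAG00000011730 from -1.33 to -0.77 (up to 0.910), ENSMFAG00000030468 from 1.38 to 2.24 (up to 0.635) and ENSMFAG00000001326 from 0.71 to 1.19 (up to 0.595). Of 840 calls 835 kept their direction in all 17 alternatives where tested. These refits share libraries with the fit that chose the calls, so the kept direction is a description only.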
